A study of Mus musculus with 40 samples.

Results

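The genes described here encode the proteins of the mitochondrial ribosome. They are every row of the count table whose symbol is Mrpl or Mrps followed by a number, with or without a final letter and without pseudogenes. The rule found 78 genes among 53465 gene identifiers, and 77 of them had enough counts to be tested. Mrpl53 (ENSMUSG00000030037, chr6:83109108-83109932) had a count of 0 in all 8 libraries. It overlaps the coding gene Ccdc142 by 14 bases, and whether its reads were lost in counting or the gene was silent cannot be told from the table. Only if its reads were counted does the 0 limit its level, to 0.0438 to 0.0516 CPM (a gene's count scaled to the library's total) in a library. By the proteins' known places, 51 genes belong to the large subunit and 26 to the small subunit. Mrps30 and Mrps18a were counted with the large subunit, where their proteins sit, and Mrps36 was placed in neither, since its product is now known as a part of the 2-oxoglutarate dehydrogenase complex. Coordinates are those of RefSeq genes in GRCm38.p6.

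The cells were mouse bladder urothelial cells grown as organoids in a medium with EGF and with Noggin and R-spondin conditioned media. The cultures were wild type (WT) or labelled as knockouts of both Kmt2c and Kmt2d (dKO), which encode methyltransferases of histone H3 lysine 4. Each genotype received either DMSO, the solvent, or MI-503 at 1 µM for 4 days, and polyA RNA was sequenced. MI-503 is an inhibitor that keeps menin from binding the methyltransferase KMT2A. Both genotypes and both treatments gave 4 groups of 2 libraries, 8 in all. The labels used here do not say how the knockouts were made, how old the donor animals were, or whether replicates were separate cultures, so p-values measure only the spread between these libraries.

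Mitochondria hold a small genome of their own, which encodes core subunits of the respiratory chain and the ribosomal RNAs. The proteins of the ribosome that translates these messages are all encoded in the nucleus, made in the cytosol and imported. Some descend from bacterial ribosomal proteins and others are found only in mitochondria, and a complete particle needs both its large and its small subunit.

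Libraries held 58113705 to 68571176 counts. The libraries labelled dKO had less Kmt2c RNA (53.8 ± 2.08 CPM against 111 ± 0.476 in DMSO, mean ± SD, n = 2) and more Kmt2d RNA (122 against 91.0 CPM), so gene counts do not show either knockout to be complete. The 2 WT DMSO libraries stood apart, with 1.26% and 1.36% of all counts on Hspa5, an endoplasmic reticulum chaperone, against 0.0345% to 0.157% in the other 6. Their TMM factors, which correct library size for differences in RNA composition, were also the lowest, 0.896 and 0.892. Basal urothelial markers were abundant (6 genes, summed 8142 to 21773 CPM) and higher in the dKO libraries. The 4 endothelial and 5 immune markers summed to at most 0.195 and 0.263 CPM. Smooth muscle markers, mostly Acta2, summed to 40.3 and 42.7 CPM in WT MI-503 and to 1.19 to 7.57 CPM elsewhere, and fibroblast markers to 0.977 to 8.49 CPM with Col1a2, Dcn and Lum at 0. The part of these differences in the results below was not tested.

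Together the members took a nearly constant share of each library. The summed level was 3517 and 3484 CPM in WT with DMSO, 3120 and 3143 CPM with MI-503, 3164 and 3184 CPM in dKO with DMSO, and 3066 and 2990 CPM with MI-503. On this TMM scale WT DMSO was above the other groups and dKO MI-503 was below them, with no overlap. As an unscaled share of all counts, the means were 0.313% and 0.316% in WT with DMSO and with MI-503, and 0.332% and 0.320% in dKO, an order in which WT DMSO was lowest. The rank of WT DMSO depends on the scaling. In such bulk samples, fewer cells of a type and less RNA per cell cannot be told apart. Large-subunit genes summed to 2371, 2178, 2212 and 2077 CPM in WT with DMSO and with MI-503 and then in dKO with each, and small-subunit genes to 1114, 929, 947 and 924 CPM. As shares of all counts the large subunit was lowest in WT DMSO (0.212%) and highest in dKO DMSO (0.232%), and the small subunit was lowest in WT MI-503 (0.0937%), against 0.0977% to 0.0996% elsewhere.

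**Figure D1:**
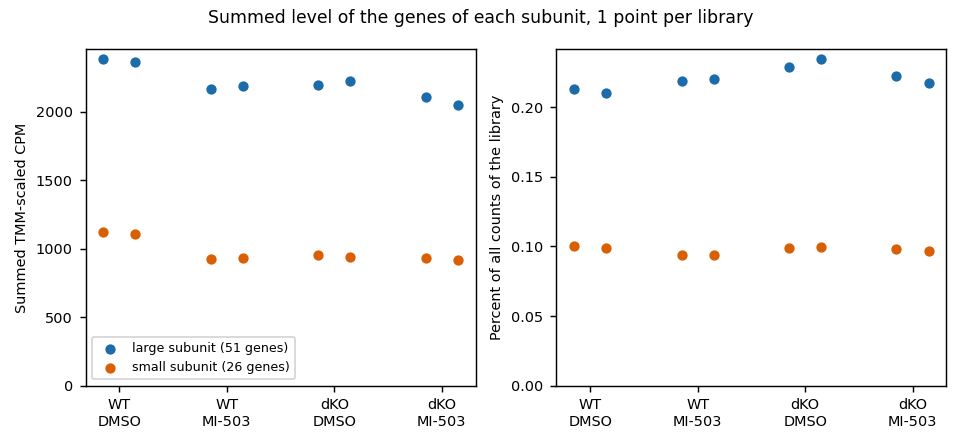
Summed level of the genes of each subunit in each library, as TMM-scaled CPM and as a percentage of all counts, with 1 point per library. On the CPM scale the WT DMSO points are the highest for both subunits, and on the percentage scale they are the lowest for the large subunit.

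Under that nearly level total, single genes moved in both directions in each comparison. A gene is said here to have risen or fallen where the edgeR quasi-likelihood F test, adjusted by Benjamini-Hochberg over all 16921 genes tested, gave p under 0.05. In DMSO, 24 of 77 members (31.2%) were higher and 27 (35.1%) lower in dKO than in WT. Over all genes tested, 29.6% were higher and 35.8% lower, so the members' shares were near the background. The members' median log2 fold change was -0.04 (middle 50% from -0.41 to 0.26), against -0.05 (-0.55 to 0.48) over all genes. With scaling by library size only, which shifts the median of all genes by 0.23, the split was 46 higher and 20 lower. Of all genes, 6899 were then higher and 4288 lower. Among calls, 69.7% of those of members and 61.7% of those of all genes were higher.

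MI-503 in WT cells raised 27 members (35.1%) and lowered 29 (37.7%), where 35.2% of all genes were higher and 33.7% lower. The median was 0.03 (-0.52 to 0.37) against 0.03 (-0.57 to 0.70) over all genes. By library size only the split was 41 higher and 26 lower, with the median of all genes shifted by 0.17. Among calls, 61.2% of those of members and 60.8% of those of all genes were then higher. MI-503 in dKO cells raised 22 members (28.6%) and lowered 28 (36.4%), where 29.1% of all genes were higher and 26.5% lower. The median was -0.05 (-0.31 to 0.21), against 0.03 (-0.34 to 0.46) over all genes, and library size alone gave the same counts. The share of members lowered in dKO cells was thus the one that lay farthest from its background among these 3 comparisons. The comparisons of dKO with WT in DMSO and of MI-503 in either genotype share their DMSO libraries.

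In MI-503, 15 members (19.5%) were higher and 19 (24.7%) lower in dKO than in WT, below the 26.6% and 28.5% of all genes. The median was -0.02 (-0.15 to 0.15) against 0.01 (-0.37 to 0.34) over all genes. This was the comparison with the narrowest spread of members. It also leaned on single libraries: without WT MI-503 replicate 1 the number lower was 12, and without dKO MI-503 replicate 1 the number higher was 9. Calls were lost over all genes too. Their number lower went from 4828 to 4222 in the first case, and their number higher from 4494 to 3718 in the second. Library size alone gave 22 higher and 12 lower, and 5376 and 4188 over all genes. Among calls, 64.7% of those of members and 56.2% of those of all genes were then higher.

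Neither subunit moved as a block. Of 50 tested large-subunit genes, 19 (38%) were higher and 16 (32%) lower in dKO in DMSO (median -0.00). With MI-503 these were 17 (34%) and 18 (36%) in WT (-0.01), and 14 (28%) and 20 (40%) in dKO (-0.08). Of 26 small-subunit genes, 5 (19.2%) were higher and 11 (42.3%) lower in dKO in DMSO (-0.08). With MI-503 these were 9 (34.6%) and 11 (42.3%) in WT (0.04), and 7 (26.9%) and 8 (30.8%) in dKO (-0.04). Over all genes the shares were 29.6% and 35.8%, 35.2% and 33.7%, and 29.1% and 26.5% in the same order. With MI-503 in WT, the 46 members of bacterial descent were likewise split, at 17 higher (37%) and 16 lower (34.8%). The 30 found only in mitochondria were split at 9 higher (30%) and 13 lower (43.3%). No difference between these classes was tested.

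**Figure D2:**
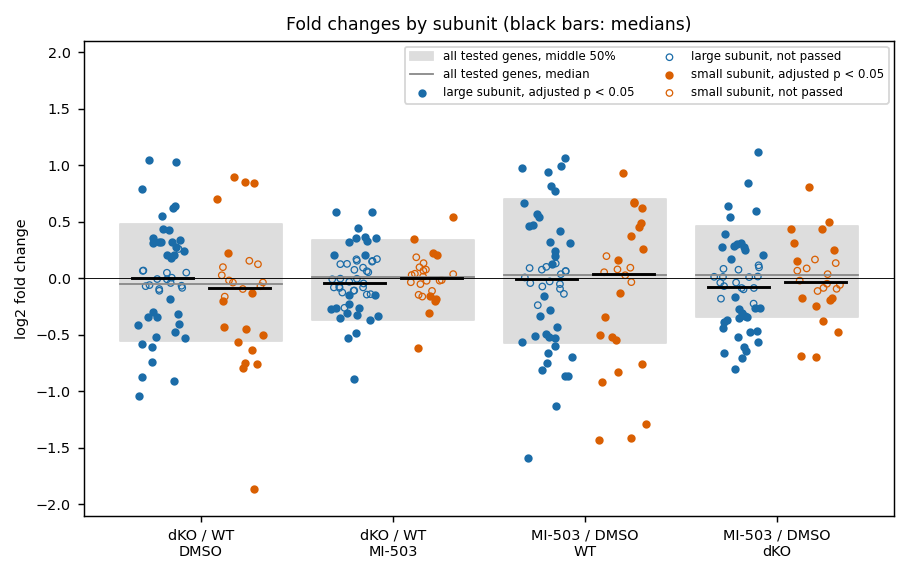
Log2 fold changes of the tested large- and small-subunit genes in 4 comparisons, with 1 point per gene, filled where the adjusted p was under 0.05, medians as black bars and the middle 50% of all tested genes as grey boxes. The members spread on both sides of 0 in each comparison and most closely around 0 for dKO against WT in MI-503.

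The 4 groups differed in how often they held the extreme level on the TMM scale. TMM factors were 0.896 and 0.892 in WT DMSO and 1.055 and 1.062 in dKO MI-503. These counts were not repeated by library size only. Both WT DMSO libraries were above the other 6 libraries for 26 members (33.8%), where this held for 25.1% of all genes, and below them for 20 (26%, against 22.2%). Both dKO MI-503 libraries were below the other 6 for 18 members (23.4%), against 12.1% of all genes, and above them for 11 (14.3%, against 13.8%). WT MI-503 was above for 11 (14.3%, against 19.8%) and below for 7 (9.09%, against 16.5%), and dKO DMSO for 8 and 8 (10.4% each, against 11.4% and 14.9%). The heat map of all members shows these 2 largest blocks, genes peaking in WT DMSO and genes lowest there.

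**Figure D3:**
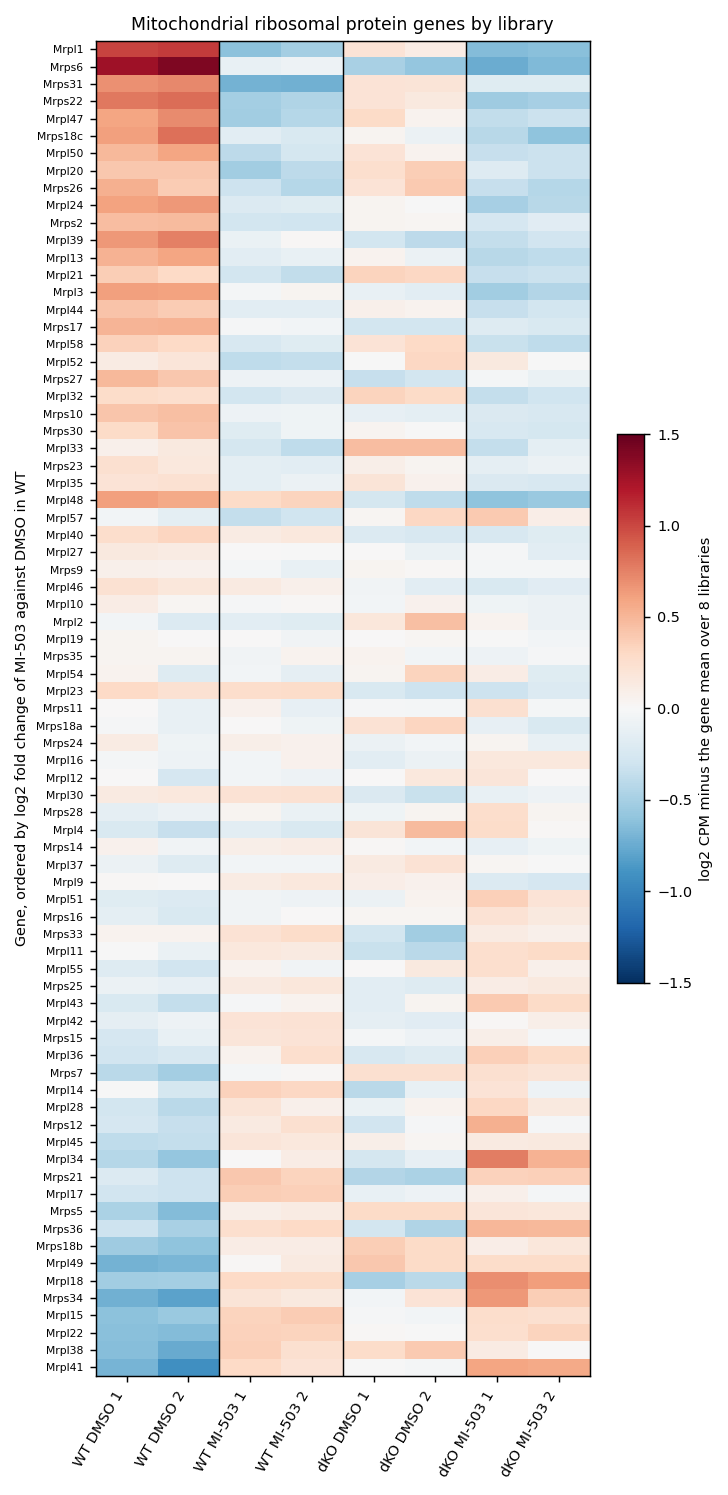
Level of each tested member in each library, as log2 TMM-scaled CPM minus the gene's mean over the 8 libraries, with genes ordered by their MI-503 effect in WT. The replicates of a group look alike, genes at one end peak in WT DMSO, and genes at the other end are lowest there.

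The largest fall with MI-503 was that of Mrpl1 (ENSMUSG00000029486, chr5:96209498-96266727), which encodes uL1m, the protein of the mobile L1 stalk of the large subunit. Mrpl1 measured 80.4 and 82.2 CPM in WT with DMSO, 26.0 and 28.0 with MI-503, 45.9 and 43.0 in dKO with DMSO, and 25.4 and 25.6 with MI-503. The groups did not overlap, and both genotypes ended at about the same low level with MI-503. Its log2 fold change with MI-503 was -1.59 in WT (SE 0.061, adjusted p = 3.16e-11) and -0.80 in dKO (adjusted p = 9.12e-08), and in DMSO it was lower in dKO than in WT (-0.87, adjusted p = 1.51e-08). In MI-503 the dKO libraries differed from WT by -0.08, which did not pass (adjusted p = 0.291).

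Mrpl47 (ENSMUSG00000037531, chr3:32727497-32736755), which encodes uL29m, and Mrpl39 (ENSMUSG00000022889, chr16:84718281-84735244), which encodes mL39, also peaked in WT DMSO. Mrpl47 measured 32.1 and 34.9 CPM in WT with DMSO, 14.9 and 15.8 with MI-503, 26.0 and 22.1 in dKO with DMSO, and 16.5 and 17.02 with MI-503. Mrpl39 measured 97.5 and 105 CPM, 57.8 and 62.7, 51.4 and 47.4, and 48.4 and 51.1 in the same order. Both were highest in WT DMSO without overlap, but MI-503 lowered Mrpl47 in both genotypes (-1.13 in WT, adjusted p = 2.94e-08, and -0.52 in dKO) whereas Mrpl39 fell in WT (-0.75, adjusted p = 1.12e-07) and its value in dKO was 0.01 (adjusted p = 0.9). The interaction, which is the MI-503 effect in dKO minus that in WT, was 0.61 for Mrpl47 and 0.76 for Mrpl39 (adjusted p = 1.18e-05).

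Mrpl48 (ENSMUSG00000030706, chr7:100545779-100608301), which encodes mL48, differed by genotype more than by treatment. It measured 48.3 and 46.5 CPM in WT DMSO and 38.4 and 39.6 in WT MI-503, against 26.2 and 24.3 in dKO DMSO and 20.7 and 21.5 in dKO MI-503. All dKO libraries lay below all WT libraries. The dKO libraries were lower in DMSO (-0.91, SE 0.062, adjusted p = 1.78e-08) and again in MI-503 (-0.89, adjusted p = 4.31e-08), and its interaction was 0.02 (adjusted p = 0.863). Its fall with MI-503 in WT (-0.28) was lost by library size only (-0.11, adjusted p = 0.126). Mrpl48 overlaps the coding gene Rab6a, which fell by 1.17 on the log2 scale in dKO in DMSO and by 0.40 in MI-503.

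Mrpl23 (ENSMUSG00000037772, chr7:142532467-142540747), which encodes uL23m of the exit tunnel rim, showed the same layout. Its levels were 37.9 and 36.1 CPM in WT DMSO and 37.1 and 37.2 in WT MI-503, against 26.4 and 24.9 in dKO DMSO and 24.9 and 26.7 in dKO MI-503. The WT and dKO libraries did not overlap and the treatments did. The fall in dKO was the same in DMSO (-0.53, adjusted p = 5.66e-06) as in MI-503 (-0.53, adjusted p = 9.52e-06), and the MI-503 values were 0.01 in both genotypes. By library size only, Mrpl23 rose with MI-503 in WT (0.18, adjusted p = 0.0205). The annotated pseudogenes of Mrpl23, Mrpl48 and Mrps36 held counts equal to 2.46%, 0.926% and 2% of those of their genes, and how reads that match both were counted is not known here.

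Mrpl33 (ENSMUSG00000106918, chr5:31613951-31622644), which encodes bL33m, was highest in dKO DMSO. It measured 24.7 and 26.0 CPM in WT with DMSO, 19.6 and 18.05 with MI-503, 32.4 and 32.4 in dKO with DMSO, and 18.4 and 21.3 with MI-503. MI-503 lowered it in dKO (-0.71, adjusted p = 3.22e-06) and in WT (-0.43), and the 2 MI-503 groups overlapped. Mrpl21 (ENSMUSG00000024829, chr19:3282997-3292837) fell by the same amount in both genotypes (-0.66 in WT, adjusted p = 1.44e-07, and -0.66 in dKO, adjusted p = 3.28e-07), and its interaction was 0.00. By library size only its value in dKO against WT in DMSO went from -0.01 to 0.22.

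Mrpl24, Mrpl13 and Mrpl12 had the highest mean CPM of all members (102, 85.9 and 80.8), values that also reflect transcript length. Mrpl12 is described below. Mrpl24, Mrpl13 and, with a mean of 77.7 CPM, Mrpl3 fell in dKO in DMSO (-0.61, -0.58 and -0.74), with MI-503 in WT (-0.81, -0.70 and -0.60) and with MI-503 in dKO (-0.47, -0.38 and -0.34). Mrpl3, which encodes uL3m, went from 114 and 114 CPM in WT DMSO to 73.5 and 76.6 in WT MI-503, 69.4 and 66.7 in dKO DMSO, and 52.1 and 55.1 in dKO MI-503. Its 2 dKO MI-503 libraries were the lowest of the 8, and dKO stayed below WT in MI-503 (-0.49, adjusted p = 2.63e-06).

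In the small subunit the largest difference was that of Mrps6 (ENSMUSG00000039680, chr16:92058336-92112227), which encodes bS6m. It measured 105 and 115 CPM in WT with DMSO, 40.2 and 41.5 with MI-503, 31.2 and 29.2 in dKO with DMSO, and 26.0 and 27.5 with MI-503. WT DMSO was far above the other groups, and no groups overlapped. Mrps6 fell in dKO in DMSO (-1.86, SE 0.063, adjusted p = 1.47e-11), with MI-503 in WT (-1.43, adjusted p = 1.21e-10) and in dKO against WT in MI-503 (-0.61, adjusted p = 2.15e-06). Its decline with MI-503 in dKO (-0.18, adjusted p = 0.031) was lost without replicate 1 of dKO DMSO (-0.13, adjusted p = 0.166) or of dKO MI-503 (-0.14, adjusted p = 0.175).

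Mrps6 overlaps Slc5a3, a gene for a myo-inositol transporter, over 29138 bases. The sources used here do not say how reads in the overlap were counted. Slc5a3 fell by 2.56 on the log2 scale in dKO in DMSO and by 1.03 with MI-503 in WT, but rose by 1.34 with MI-503 in dKO (adjusted p = 9.37e-10). The 2 genes thus moved in opposite directions in that comparison and in the same direction in the other 2. How far their reads could be mixed was not tested.

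Mrps31 (ENSMUSG00000031533, chr8:22410449-22429669), which encodes mS31, and Mrps22 (ENSMUSG00000032459, chr9:98588730-98601679), which encodes mS22, are small-subunit proteins without a bacterial counterpart. Mrps31 measured 46.1 and 47.1 CPM in WT with DMSO, 17.5 and 17.4 with MI-503, 33.1 and 32.7 in dKO with DMSO, and 25.4 and 25.3 with MI-503. Here WT MI-503 was the lowest group, without overlap. MI-503 lowered Mrps31 by 1.42 on the log2 scale in WT (-1.42, adjusted p = 7.31e-11) and less in dKO (-0.38, adjusted p = 7.2e-05), with an interaction of 1.04 (adjusted p = 3.22e-07), and dKO was above WT in MI-503 (0.54, adjusted p = 3.84e-06). Mrps22 fell from 52.9 and 54.9 CPM to 21.6 and 22.4 in WT (-1.29, adjusted p = 2.15e-10) and from 35.5 and 34.0 to 21.2 and 21.7 in dKO (-0.70, adjusted p = 3.33e-07). As with Mrpl1, the 2 MI-503 groups met at 1 level, differing by -0.04.

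Mrps26, which encodes mS26, fell with MI-503 by similar amounts in WT (-0.83) and dKO (-0.68, adjusted p = 7.01e-06). Mrps17 and Mrps27 were highest in WT DMSO. Mrps17, which encodes uS17m, fell with MI-503 in WT (-0.55), and its value in dKO was 0.07 (interaction 0.62). Mrps27 (ENSMUSG00000041632, chr13:99344767-99415562), which encodes mS27, a protein of the pentatricopeptide repeat family, measured 57.7 and 54.1 CPM in WT with DMSO, 38.9 and 39.1 with MI-503, 32.3 and 33.9 in dKO with DMSO, and 40.4 and 38.4 with MI-503. Mrps27 fell with MI-503 in WT (-0.52) and rose in dKO (0.25, adjusted p = 0.0027), and its interaction was 0.77 (adjusted p = 5.66e-06).

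**Figure D4:**
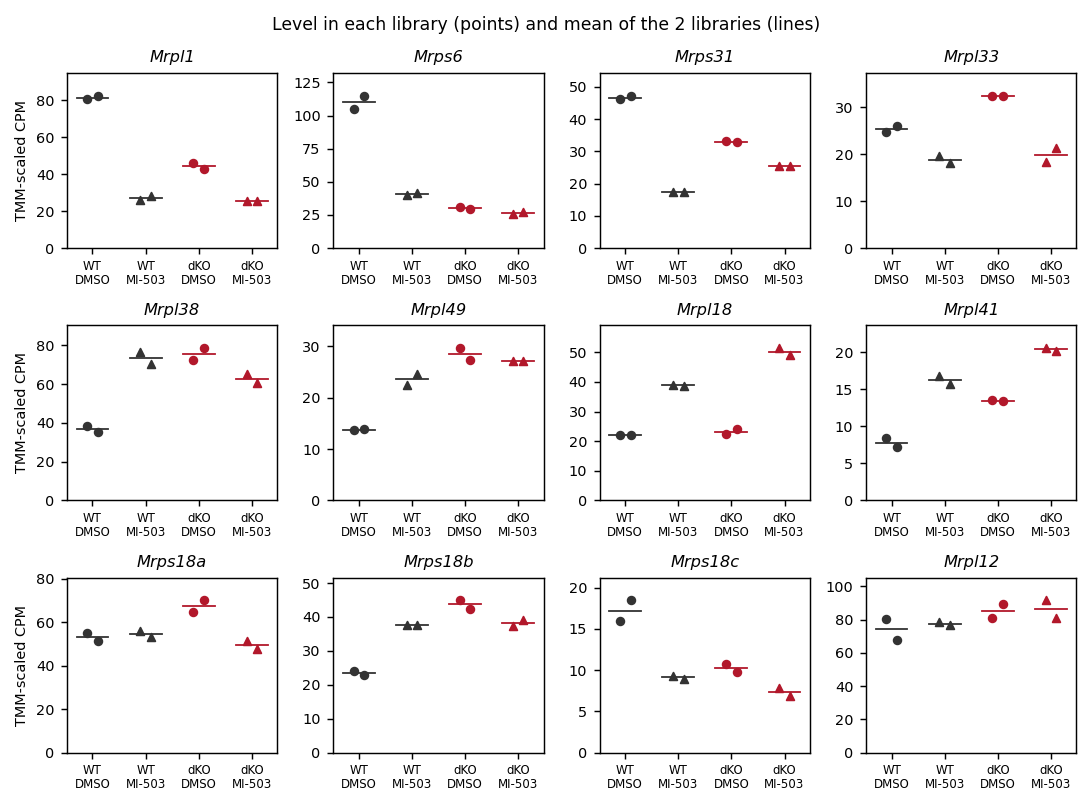
TMM-scaled CPM of 12 members in each library, each panel with its own axis from 0, points for libraries (WT dark, dKO red, circles DMSO, triangles MI-503) and lines for means of 2. Mrpl1 and Mrps6 are highest in WT DMSO, Mrpl38, Mrpl49 and Mrpl41 lowest there, and Mrpl18 is raised in both MI-503 groups.

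The genes that rose were of both subunits too. Mrpl38 (ENSMUSG00000020775, chr11:116131817-116138868), which encodes mL38, measured 38.6 and 35.4 CPM in WT with DMSO, 76.5 and 70.6 with MI-503, 72.2 and 78.5 in dKO with DMSO, and 65.2 and 60.3 with MI-503. WT DMSO lay below all other libraries. Mrpl38 rose in dKO in DMSO (1.03, SE 0.068, adjusted p = 1.23e-08) and with MI-503 in WT (0.99, adjusted p = 1.22e-08), and fell with MI-503 in dKO (-0.26, adjusted p = 0.00376). Its interaction of -1.26 (adjusted p = 2.15e-07) was the most negative among the members.

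Mrpl49 (ENSMUSG00000007338, chr19:6053630-6057755), which encodes mL49, and Mrps5 (ENSMUSG00000027374, chr2:127587426-127603986), which encodes uS5m, were also lowest in WT DMSO. Mrpl49 measured 13.7 and 13.9 CPM there, 22.5 and 24.6 in WT MI-503, 29.6 and 27.3 in dKO DMSO, and 27.1 and 27.1 in dKO MI-503. It rose in dKO in DMSO (1.05, adjusted p = 1.81e-08) and with MI-503 in WT (0.77, adjusted p = 3.33e-07), and its value with MI-503 in dKO was -0.07 (adjusted p = 0.416). Mrps5 rose by 0.84 and 0.66 in the first 2 of these comparisons, and its value in the third was -0.11 (adjusted p = 0.128). Mrpl49 overlaps Syvn1, which encodes a ubiquitin ligase of the endoplasmic reticulum, by 89 bases, and Syvn1 fell where Mrpl49 rose (-1.45 in dKO in DMSO and -2.83 with MI-503 in WT). Fau, which starts divergently from Mrpl49, rose with it in dKO in DMSO (0.32, adjusted p = 0.00944). With MI-503 in WT, Fau did not pass (0.11, adjusted p = 0.31).

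Mrpl41, Mrpl22, Mrpl15 and Mrps34 rose with MI-503 in WT and, less, in dKO. Mrpl41 (ENSMUSG00000036850, chr2:24972470-24975098), which encodes mL41, measured 8.37 and 7.18 CPM in WT with DMSO, 16.8 and 15.6 with MI-503, 13.5 and 13.4 in dKO with DMSO, and 20.5 and 20.2 with MI-503. Its groups did not overlap, and its rise was 1.06 in WT (adjusted p = 8.13e-08) and 0.60 in dKO. Mrpl22 rose by 0.98 and 0.29, Mrpl15 by 0.94 and 0.28, and Mrps34 by 0.93 and 0.43. The interaction passed for all 4, from -0.47 for Mrpl41 to -0.69 for Mrpl22.

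Mrpl18 (ENSMUSG00000057388, chr17:12911345-12917787), which encodes uL18m, was raised by MI-503 whichever the genotype. It measured 22.1 and 22.2 CPM in WT with DMSO, 39.0 and 38.7 with MI-503, 22.4 and 24.0 in dKO with DMSO, and 51.4 and 48.96 with MI-503. The DMSO libraries of both genotypes sat together below all MI-503 libraries. The rise was 0.81 in WT (adjusted p = 3.59e-08) and 1.11 in dKO (SE 0.061, adjusted p = 3.72e-09). Mrpl18 overlaps Tcp1, a subunit of the cytosolic chaperonin, which did not rise in WT (-0.04, adjusted p = 0.531) and rose by 0.42 in dKO.

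Mrps21, Mrpl34 and Mrps36 had a like pattern, with rises of 0.62, 0.57 and 0.67 in WT and of 0.81, 0.84 and 0.85 in dKO. Mrpl11, which encodes uL11m of the stalk base, rose by 0.64 in dKO (adjusted p = 9.49e-07) and by 0.20 in WT, a call that was lost without WT DMSO replicate 2 (0.15, adjusted p = 0.108) or without either WT MI-503 library. Mrpl57 and Mrpl52 were among the members higher in dKO than in WT in MI-503 (0.59, adjusted p = 0.000394, and 0.44, adjusted p = 0.000851).

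Mrps18a, Mrps18b and Mrps18c are 3 paralogs for proteins of the uS18/bS18 family that take different places, the first on the large and the others on the small subunit. They did not move alike. Mrps18a (ENSMUSG00000023967, chr17:46111004-46128908) was highest in dKO DMSO, at 64.6 and 70.1 CPM, and measured 55.1 and 51.6 in WT DMSO, 56.1 and 53.3 in WT MI-503, and 51.4 and 47.7 in dKO MI-503. It rose in dKO in DMSO (0.34, adjusted p = 0.000325), fell with MI-503 in dKO (-0.44, adjusted p = 3.97e-05), and its value with MI-503 in WT was 0.04, which by library size only became a rise (0.21, adjusted p = 0.0106).

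Mrps18b (ENSMUSG00000024436, chr17:35910380-35916440) was lowest in WT DMSO, at 24.2 and 22.9 CPM, against 37.6 and 37.6 in WT MI-503, 44.9 and 42.5 in dKO DMSO, and 37.5 and 39.2 in dKO MI-503. It rose in dKO in DMSO (0.89, adjusted p = 1.76e-08) and with MI-503 in WT (0.68, adjusted p = 2.42e-07). Its decline with MI-503 in dKO (-0.19, adjusted p = 0.0153) was lost without replicate 1 of dKO DMSO (-0.15, adjusted p = 0.0962) or of dKO MI-503 (-0.16, adjusted p = 0.113). The gene that starts divergently beside it, Ppp1r10, which encodes a regulator of protein phosphatase 1, fell where Mrps18b rose (-1.27 in dKO in DMSO and -1.74 with MI-503 in WT). Ppp1r10 also fell with MI-503 in dKO (-0.47, adjusted p = 1.33e-06), where the value of Mrps18b was negative too.

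Mrps18c (ENSMUSG00000016833, chr5:100798759-100804467) had the opposite layout, highest in WT DMSO at 16.0 and 18.5 CPM, against 9.31 and 8.92 in WT MI-503, 10.7 and 9.77 in dKO DMSO, and 7.84 and 6.87 in dKO MI-503. Mrps18c fell in dKO in DMSO (-0.75, adjusted p = 1.08e-05) and with MI-503 in WT (-0.92) and dKO (-0.48). Its interaction (0.44, adjusted p = 0.0206) ended, among others, by library size only (0.28, adjusted p = 0.12) and without WT DMSO replicate 2 (0.33, adjusted p = 0.0908). Its difference of dKO from WT in MI-503 (-0.31, adjusted p = 0.0207) was lost by library size only (-0.24, adjusted p = 0.0591), without either WT MI-503 library, and without dKO MI-503 replicate 2 (-0.22, adjusted p = 0.16).

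Members with well-known single roles moved little or in part. Mrpl12 encodes bL12m, the stalk protein that recruits translation factors, and measured 80.6 and 67.9 CPM in WT with DMSO, 78.5 and 76.6 with MI-503, 81.1 and 89.5 in dKO with DMSO, and 91.6 and 80.8 with MI-503. Its groups barely separated, and its rise in dKO in DMSO (0.20, adjusted p = 0.0413) was lost without WT DMSO replicate 2 (0.08, adjusted p = 0.439), dKO DMSO replicate 2 (0.13, adjusted p = 0.254) or WT MI-503 replicate 1 (0.20, adjusted p = 0.0511). By library size only it also rose with MI-503 in WT (0.24, adjusted p = 0.0213). Mrps12 encodes uS12m of the decoding centre, and its rises with MI-503 of 0.49 in WT (adjusted p = 0.0114) and 0.43 in dKO (adjusted p = 0.0244) each rested on single libraries. In WT the adjusted p was 0.0655 without WT DMSO replicate 2 and 0.0585 without WT MI-503 replicate 2, and in dKO it was 0.176 without dKO DMSO replicate 1 and 0.488 without dKO MI-503 replicate 1.

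Mrpl58 (ENSMUSG00000018858, chr11:115403724-115412674), which encodes a peptidyl-tRNA hydrolase built into the large subunit, fell with MI-503 in both genotypes. It measured 42.9 and 41.5 CPM in WT DMSO and 28.7 and 29.8 in WT MI-503 (-0.53, adjusted p = 2.72e-06), and 39.1 and 41.5 in dKO DMSO and 27.0 and 25.9 in dKO MI-503 (-0.61, adjusted p = 1.38e-06). DMSO and MI-503 libraries did not overlap. In dKO against WT in DMSO its value was -0.07 and did not pass, and by library size only it was 0.16 (adjusted p = 0.0289).

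The MI-503 effects in the 2 genotypes come from separate libraries and could be set against each other. Across the 77 members, Pearson's r of the 2 log2 fold changes was 0.71 and Spearman's rho 0.73, against 0.61 and 0.63 over all genes, as a description over genes, which are not independent. MI-503 lowered 22 members in both genotypes (28.6%), against 20.4% of all genes, and raised 17 in both (22.1%), against 21.1%. Opposite calls were made for 4 members, against 5.06% of all genes: Mrps27, above, and Mrpl38, Mrps18b and Mrpl9 in the other sense. For Mrpl9 the rise in WT was small (0.13, adjusted p = 0.0399) and was lost without any 1 of 6 libraries, those of WT included (0.09 to 0.15).

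**Figure D5:**
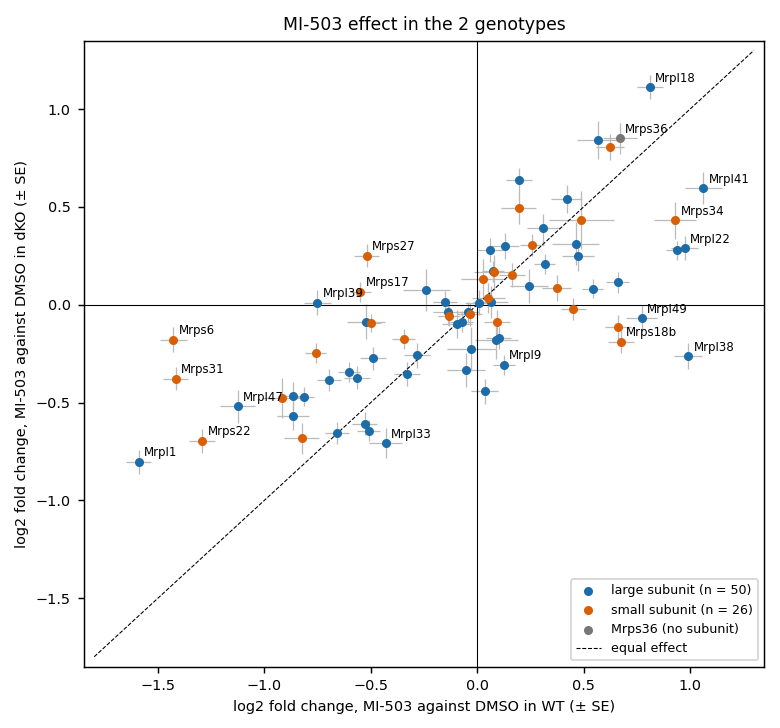
Log2 fold change with MI-503 in dKO against that in WT for the 77 tested members, with SE as bars, genes coloured by subunit and a dashed line for equal effects. Mrps6, Mrps31 and Mrpl1 lie farthest above the line and Mrpl38 farthest below it.

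The size of the MI-503 effect differed between genotypes for 34 members by the interaction test. The difference was positive for 19 (24.7%), against 24.8% of all genes, and negative for 15 (19.5%), against 22%. The most positive were Mrps6 (1.25), Mrps31 (1.04), Mrpl1 (0.79), Mrps27 (0.77) and Mrpl39 (0.76), which are genes that were high in WT DMSO. The most negative were Mrpl38, Mrps18b (-0.86), Mrpl49 (-0.84), Mrps5 (-0.78) and Mrpl22, which are genes that were low there. The WT DMSO level enters the interaction with a positive sign. This link of the extremes to WT DMSO is therefore partly built in and is not a separate result. By library size only, 12 were positive and 23 negative, with the median of all genes shifted by -0.16. Among calls, 34.3% of those of members and 37.2% of those of all genes were then positive. The call held in all 14 other settings tried for 25 of the 34, these 10 among them. Genotype effects in DMSO and in MI-503, also from separate libraries, had r = 0.53 and rho = 0.53 over members and 0.73 and 0.56 over all genes. At the other extreme, 7 tested members (9.09%) passed in none of the 5 comparisons, against 12.8% of all genes: Mrpl10, Mrpl19, Mrpl54, Mrps11, Mrps24, Mrps28 and Mrps35.

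By position in GRCm38.p6 (RefSeq), the 78 genes lie on 17 chromosomes, with 11 on chromosome 11 and 8 on chromosome 17, and 20 overlap another coding gene. Genes spanned 825 to 121712 bases with a median of 7690.5. Longer members tended to lower fold changes. Across members, r of the log2 span with the log2 fold change was -0.43 for dKO in DMSO, -0.31 for MI-503 in WT and -0.23 for MI-503 in dKO. Over 12767 tested coding genes it was -0.01, -0.08 and -0.06. The members lowered by MI-503 in both genotypes had a median span of 9105 bases and those raised in both 4844.

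Promoter sequences from RefSeq were at hand for 69 members. A coding gene on the other strand started within 1000 bases of the start of 25 of them (36.2%), against 14.4% of 10236 tested coding genes. Where a member and such a partner both passed, they moved in the same direction in 11 of 15 pairs for dKO in DMSO, 7 of 10 for MI-503 in WT and 9 of 13 for MI-503 in dKO, or 73.3%, 70.0% and 69.2%. In 661 divergent pairs of other tested coding genes these shares were 62.0%, 65.0% and 71.2%. Pearson's r of the log2 fold changes over the 25 members and their partners was 0.26, 0.05 and 0.29, against 0.41, 0.35 and 0.32 over the other pairs, and these differences were not tested. Mrpl46 and Mrps11, each the partner of the other, entered this r in both orders, whereas the 661 other pairs entered in 1 order. One pair joins both subunits: Mrpl46 (ENSMUSG00000030612, chr7:78775341-78783089), for mL46, and Mrps11 (ENSMUSG00000030611, chr7:78783131-78792988), for uS11m, start back to back with 41 bases between them. The sequence between their starts is shown because it is shared by both genes, on the strand of Mrpl46 (minus, chr7:78783090-78783130), with the letters CCGCCC, the complement of the SP1 box GGGCGG, in capitals.
Mrpl46 to Mrps11: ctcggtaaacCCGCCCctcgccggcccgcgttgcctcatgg
Mrpl46 and Mrps11 differed in their calls, and the difference between the genes was not tested. Mrpl46 measured 21.5 and 20.5 CPM in WT with DMSO, 20.03 and 19.29 with MI-503, 17.7 and 16.4 in dKO with DMSO, and 15.6 and 16.3 with MI-503, and fell in dKO in DMSO (-0.30, adjusted p = 0.00211), a call lost by library size only (-0.07, adjusted p = 0.383), and by -0.31 in MI-503 (adjusted p = 0.00263). Mrps11 stayed between 10.96 and 14.1 CPM in all 8 libraries and passed in no comparison, though by library size only it was higher in dKO in DMSO (0.26, adjusted p = 0.0425).

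Letters of known motifs were searched on both strands in the 250 bases upstream of each start. The ETS core CCGGAAG, the type of site that GABP binds, was found in 18 of 69 members (26.1%), against 15.4% of tested coding genes. The full NRF1 core, a palindrome of its part GCGCATG, was found in 3 members (4.3%), against 1.8%, and that part, with or without the full core, in 8 (11.6%), against 6.4%. The part without the full core stood in 5 (7.2%), against 4.6%. The YY1 core AAGATGG stood in 6 (8.7%, against 5.1%), the SP1 box GGGCGG in 33 (47.8%, against 63.9%) and the CCAAT box in 25 (36.2%, against 40.7%). Also searched were the E-box CACGTG (7.2%, against 9.7%) and the TATA box TATAAA (7.2%, against 8.1%). The last were the letters TGACGTCA (2.9%, against 3.0%) and TGATGCAA (0.0%, against 0.7%). NRF1 and GABP are known as activators of nuclear genes for mitochondrial proteins. The 3 members with the full NRF1 core are shown around it, in the direction of their own gene, because they share the same letters yet had different profiles. Capitals mark the core, and the windows are chr13:14613105-14613134 (minus strand), chr16:84735350-84735379 (minus strand) and chr3:94443298-94443327 (plus strand). Starts are those of the promoter sequences, which need not be the first base of the gene span. The Mrpl9 window lies upstream of the start used but inside the gene's span (chr3:94443154-94448708).
Mrpl32: tttgacccttGCGCATGCGCaagaggggcc
Mrpl39: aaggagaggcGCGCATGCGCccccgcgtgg
Mrpl9: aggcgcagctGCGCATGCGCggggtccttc
Mrpl32, for bL32m, fell with MI-503 in WT (-0.51, adjusted p = 1.07e-06) and dKO (-0.64, adjusted p = 2.18e-07). Mrpl39 fell in WT and had an MI-503 value of 0.01 in dKO, with the interaction given above. Mrpl9, for bL9m, measured 61.8 and 60.9 CPM in WT with DMSO, 66.0 and 67.9 with MI-503, 64.9 and 63.5 in dKO with DMSO, and 52.7 and 51.1 with MI-503, where it was lowest without overlap (-0.31 against dKO DMSO, adjusted p = 0.00015). Among members with a promoter sequence, the CCAAT box stood in 10 of 15 raised by MI-503 in both genotypes (66.7%) and in 7 of 21 lowered in both (33.3%). It was picked because its gap was the widest among the motifs searched, and no gap was tested. In the same order the ETS core stood in 33.3% and 28.6%, and the SP1 box in 46.7% and 28.6%. The YY1 core stood in 13.3% and 4.8%, and the NRF1 part GCGCATG in 6.7% and 9.5%. A match is a run of letters and does not show that a factor binds there.

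Other genes of mitochondrial translation were read from lists of known members, chosen with earlier results of these data known. Of the 5 mitoribosome proteins without an Mrp symbol, Dap3, Ptcd3 and Aurkaip1 fell with MI-503 in both genotypes. Ptcd3, which encodes mS39, had means of 122 CPM in WT with DMSO, 62.3 with MI-503, 103 in dKO with DMSO and 56.6 with MI-503 (-0.97 in WT and -0.87 in dKO). Gadd45gip1, for mL64, rose in dKO in DMSO (0.74), with MI-503 in WT (0.47) and in dKO (0.32). Chchd1, for mS37, rose with MI-503 in dKO (0.34, adjusted p = 0.000443), and its value in WT was -0.09 (adjusted p = 0.207, interaction 0.43). Of 26 genes for mitoribosome assembly and rRNA modification, 13 were higher and 7 lower in dKO in DMSO, 6 and 9 with MI-503 in WT, and 3 and 10 in dKO. Gtpbp10, a GTPase of large-subunit assembly, fell with MI-503 in WT (-1.29) and less in dKO (-0.28), while Mtg1, another such GTPase, rose in WT (1.01).

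Of 17 genes for mitochondrial transcription and RNA processing, 12 (70.6%) fell and 3 (17.6%) rose with MI-503 in WT (median -0.47). In dKO 7 (41.2%) fell and 2 (11.8%) rose (-0.14). Over all genes tested, 33.7% fell and 35.2% rose in WT, and 26.5% fell and 29.1% rose in dKO. Tfam, which packages and transcribes mitochondrial DNA, fell in WT (-1.08), and its value in dKO was -0.14 (adjusted p = 0.0788). Of 12 translation factors 3 (25%) rose and 7 (58.3%) fell with MI-503 in WT, and 4 (33.3%) rose and 1 (8.33%) fell in dKO. Tufm, the elongation factor that brings aminoacyl-tRNA, was among those that rose in WT, from 42.9 to 91.0 CPM (1.08). Of 20 mitochondrial aminoacyl-tRNA synthetases and tRNA amidotransferase genes 11 (55%) rose and 6 (30%) fell in WT, and 7 (35%) and 6 (30%) in dKO. Of 12 regulators of mitochondrial biogenesis, 8 (66.7%) fell and 2 (16.7%) rose with MI-503 in each genotype. Their values ran from -4.695 to 2.261 in WT (median -0.81) and from -2.671 to 1.251 in dKO (median -0.42). Among them Gabpb1, a GABP subunit, fell in WT (-1.16) and dKO (-0.39), and Nrf1 fell in dKO (-0.69). A link between these regulators and the motifs above was not tested.

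Most of the messages that the mitochondrial ribosome translates fell with MI-503. Of 13 mitochondrially encoded protein genes, 10 (76.9%) fell and 1 (7.69%) rose in WT (median -0.63), and 11 (84.6%) fell and 2 (15.4%) rose in dKO (-0.67). The exceptions were mt-Co3, which rose in WT (0.37) and dKO (0.40), mt-Co1, which rose in dKO (0.33) and had a value of -0.02 in WT, and mt-Nd6, which did not pass in WT (-0.35). The mean of mt-Cytb, for cytochrome b, was 7151 CPM in WT with DMSO, 1782 with MI-503, 6126 in dKO with DMSO and 2145 with MI-503 (-2.00 and -1.51). The 2 ribosomal RNAs of the particle moved apart: mt-Rnr1 rose in WT (1.01) and dKO (0.89) and mt-Rnr2 fell (-0.87 and -0.51). PolyA selection limits what these ribosomal RNA counts mean. The cytosolic counterparts of the members, a list of 79 tested ribosomal protein genes added after values were seen, behaved differently in count. Of these, 41 (51.9%) rose and 12 (15.2%) fell with MI-503 in WT (median 0.19). In dKO 47 (59.5%) rose and the other 32 did not pass (0.19). Over all genes tested, 35.2% rose and 33.7% fell in WT, and 29.1% rose and 26.5% fell in dKO. The difference between the 2 ribosomes was not tested.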

How the data were processed

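PolyA RNA of 8 libraries was measured by RNA-seq. The authors deposited raw counts of reads per gene, not normalized, as its whole-number values and unequal column totals show. The submitters' processing notes name, for the series, the builds GRCm38 and mm10 and the tools STAR, Bowtie2, MACS3, SICER and deepTools. No counting program, strand use or annotation release is named in the sources used here. Samples measured by other assays were not analysed here. Of 53465 identifiers 53274 had a symbol, and 1 row with no identifier was left out.

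The fit used edgeR 4.0.16 in R 4.3.3 (TMM scaling, filterByExpr with minimum count 10 and total 15, which kept 16921 genes and left out 36544). A quasi-likelihood model had 1 mean per group over all 8 libraries (4 residual degrees of freedom, biological coefficient of variation 5.14%). The two-sided F test of 5 contrasts was adjusted by Benjamini-Hochberg over all genes tested, with threshold 0.05. A standard error is the size of the log2 fold change divided by √F, and the prior count was 0.125. A count of 0 allows up to 3 counts, for counting error only. An exact permutation test of 2 against 2 cannot go below p = 0.33. The fit was also run on simulated data with far fewer changed genes, evenly split up and down. That run did not test the scaling under changes as broad as those seen here.

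Members, gene lists, tests and alternatives were chosen with earlier results of these data known. Named members were, per contrast, the 5 highest and 5 lowest fold changes that passed without overlap of groups (overlap not asked of the interaction), the 3 with the highest CPM, the Mrps18 paralogs, Mrpl12, Mrps12, Mrpl58 and members left untested. Others (Mrpl32, Mrpl46, Mrps11 and genes of opposite, interaction or no calls) were named after their values were seen. From the lists, genes were taken among those with small adjusted p. Alternatives were DESeq2 1.42.0, RLE factors, scaling by library size only, a filter of at least 1 CPM in every library of a group or none, fits of only the groups compared, a block by replicate number, and leaving out libraries 1 at a time. Positions and promoters are RefSeq's for GRCm38.p6, matched by symbol.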

Additional observations from a re-analysis of the deposited data

Results flagged for a closer look

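The MI-503 effect differed between WT and dKO by the interaction test (edgeR, adjusted p under 0.05) for 34 members, and values are the log2 effect in dKO minus that in WT. It was positive for 19. In the highest range were Mrps6 1.25, Mrps31 1.04, Mrpl1 0.79, Mrps27 0.77, Mrpl39 0.76, Mrps17 0.62 and Mrpl47 0.61. Lower in order came Mrps22 0.60, Mrps2 0.51, Mrpl11 0.44, Mrps18c 0.44, Mrpl52 0.44, Mrps10 0.40 and Mrpl50 0.40. The smallest were Mrpl24 0.34, Mrpl13 0.31, Mrpl18 0.30, Mrpl20 0.30 and Mrpl3 0.26. The difference was negative for 15. The most negative were Mrpl38 -1.26, Mrps18b -0.86, Mrpl49 -0.84, Mrps5 -0.78, Mrpl22 -0.69, Mrpl15 -0.66, Mrpl17 -0.55 and Mrps34 -0.50. Closer to 0 were Mrps18a -0.48, Mrps7 -0.47, Mrpl41 -0.47, Mrpl45 -0.46, Mrpl9 -0.43, Mrps15 -0.29 and Mrpl37 -0.27. Over 14 other settings, 25 of the 34 kept their call. By library size only, 7 lost it: Mrpl52, Mrpl50, Mrpl13, Mrpl18, Mrpl20, Mrpl3 and Mrps18c, with values that stayed positive at 0.275, 0.243, 0.154, 0.141, 0.139, 0.0982 and 0.279. With 1 library left out, 6 lost it. They were Mrps15 and Mrpl37 (each for 5 of the 8 libraries, adjusted p up to 0.102 and 0.0795), Mrpl20 (5) and Mrps18c (4), Mrpl3 without WT MI-503 replicate 1 (0.227, adjusted p = 0.0629) or dKO MI-503 replicate 2 (0.218, adjusted p = 0.0538), and Mrpl18 without dKO MI-503 replicate 1 (0.263, adjusted p = 0.0529). Without a filter Mrpl3 (0.16), Mrpl18 (0.202) and, with either filter changed, Mrpl20 and Mrps18c lost it too, and Mrpl20 also with RLE factors and DESeq2. None changed sign.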

How the results depend on the processing

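Scaling by library size only gave 46 higher in dKO in DMSO (median 0.191), 41 higher with MI-503 in WT (0.201), 12 positive and 23 negative interactions (-0.112), and 12 lower in dKO in MI-503 (0.053). The medians of all genes were then 0.175, 0.205, -0.141 and 0.0761 in the same order. The members' medians also moved to 0.0557 (dKO in DMSO) and -0.0503 (interaction) without a filter, to 0.0483 (dKO in DMSO) and 0.101 (MI-503 in WT) with the stricter filter, and to 0.0379 (dKO in DMSO) with only the groups compared. Interactions were positive and negative for 15 and 22 members without a filter and for 17 and 21 with the stricter one. Over all genes these were 3432 and 4601, and 3465 and 4159. Reversals came by library size only, in dKO against WT in DMSO: Mrps21 from -0.20 to 0.0286, Mrpl21 from -0.01 to 0.219 and Mrpl58 from -0.07 to 0.162. With each library left out, the members lower in dKO in MI-503 ranged from 12 to 20 and those higher from 9 to 17. Over all genes the numbers ranged from 4060 to 4970 lower and from 3596 to 4606 higher. Of 209 values of named members, 206 kept direction and call with RLE factors and with DESeq2, 178 by library size only, and 194 to 204 with a library left out. With the replicate block, 24 members rose and 26 fell in dKO in DMSO, 26 and 28 with MI-503 in WT, 21 and 28 in dKO, 19 and 15 in the interaction, and 15 and 18 in dKO in MI-503. Mrpl9 with MI-503 in WT was the 1 named value that lost its call under it (0.126, adjusted p = 0.0653 by edgeR). Same-numbered libraries did not deviate together (correlations from -0.0886 to 0.0585). With 2 libraries a group, this cannot tell whether they shared a culture or a day. Calls that ended with 1 library left out were of members with low levels (Mrps12 and Mrps18c, 8.55 and 10.98 CPM) and high ones (Mrpl3 and Mrpl12, 77.7 and 80.8 CPM).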
